A study of Mus musculus with 92 samples.

Results

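Complement and coagulation proteins circulate in plasma and most are made by hepatocytes, and 33 genes that encode them were followed in the livers of HET3 mice. The genes were listed by name and fall into 5 roles: coagulation proteases and cofactors, fibrinolysis and inhibitors of coagulation, complement activation, the terminal complement pathway, and complement regulators. Of the 33, 30 had an estimated count in every female library, among 17275 genes counted in all, and the 30 passed the filter on low counts. Klkb1, C4b and Cfb lay outside the lines that could be assigned and are given only from the authors' deposited tables of comparisons, which list the 33 genes in both sexes.

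Coagulation is a cascade of serine proteases: the contact factors F12, F11 and plasma prekallikrein (Klkb1), with kininogen, start the intrinsic arm, F7 starts the extrinsic arm, and both lead through F9, F10 and F5 to thrombin, the product of F2. Antithrombin (Serpinc1), heparin cofactor II (Serpind1) and the protein C system (Proc, Pros1) restrain it, and plasmin, made from Plg and inhibited by Serpinf2, dissolves the clot. Complement is started by antibodies, by lectins such as Mbl1 and Mbl2 with the proteases Masp1 and Masp2, or by the alternative pathway with Cfb; each route cleaves C3, and then C5, the product of Hc. C5b gathers C6, C7, C8 and C9 into a membrane attack complex, while factor I (Cfi) and C4b-binding protein (C4bp) take the convertases apart. Many of these genes are also known to respond to inflammatory cytokines in liver as part of the acute phase response.

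HET3 mice are a genetically heterogeneous cross, so animals of a group are not genetically identical. The female groups were Low Isoleucine (that essential amino acid alone reduced), Low Amino Acid (all amino acids reduced) and Control, killed at 24 or 6 months of age. Each group was a set of separate animals, fasted for 16 h before killing per the series description. By the labels the diet began at 6 months of age in animals killed at 24 months and at 9 weeks in those killed at 6 months, whereas the series description gives 13 weeks on diet. Age, starting age and time on diet therefore cannot be told apart. Groups held 8 libraries, except 7 in the 24-month Low Amino Acid group and 7 in the 6-month Low Isoleucine group. A further 6-month Low Isoleucine library was left out; the Y-linked gene Kdm5d stood at 50.8 counts per 1000000 (CPM) there and at no more than 0.639 CPM in the other 46 female libraries. Males were on the same diets at the same ages and enter through the authors' deposited table only.

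Totals per female library had a median of 22.6 M counts (M, 1000000) and ran between 7.82 M, in 24-month Low Isoleucine replicate 5, and 27.56 M. The 6 hepatocyte markers that could be counted averaged between 11.79 and 13.18 on the log2 CPM scale in the 46 libraries, and none was at 0 in any library. Values come from whole liver, so fewer cells of a type and less RNA per cell cannot be told apart.

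C8a and C8b are neighbours on chromosome 4 and are transcribed toward each other, while Hc lies on chromosome 2 and C4bp on chromosome 1. The 250 bases before the RefSeq start (build GRCm38.p6) of C8a, C8b, Hc and C4bp are shown because these 4 had the lowest adjusted p in aged females on Low Isoleucine among members with a promoter entry. They lie at chr4:104876399-104876648 on the minus strand, chr4:104766067-104766316 on the plus strand, chr2:35061413-35061662 on the minus strand and chr1:130661619-130661868 on the minus strand. Capitals mark every match, on either strand, to the letters GTTAAT (the half-site of the hepatocyte factor HNF1), CAAAGTCC (a core of HNF4 sites), TTNNGNAA (a C/EBP core) or TTCNNNGAA (a STAT motif).
C8a: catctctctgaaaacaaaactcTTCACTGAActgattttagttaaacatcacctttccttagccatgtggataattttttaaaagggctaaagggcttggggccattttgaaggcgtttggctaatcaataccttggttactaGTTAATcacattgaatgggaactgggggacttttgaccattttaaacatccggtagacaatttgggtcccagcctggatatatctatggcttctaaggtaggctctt
C8b: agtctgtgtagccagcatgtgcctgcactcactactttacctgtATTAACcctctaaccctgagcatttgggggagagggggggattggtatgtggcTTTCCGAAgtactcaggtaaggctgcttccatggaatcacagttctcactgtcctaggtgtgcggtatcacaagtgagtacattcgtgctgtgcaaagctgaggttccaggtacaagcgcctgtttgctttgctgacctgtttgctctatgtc
Hc: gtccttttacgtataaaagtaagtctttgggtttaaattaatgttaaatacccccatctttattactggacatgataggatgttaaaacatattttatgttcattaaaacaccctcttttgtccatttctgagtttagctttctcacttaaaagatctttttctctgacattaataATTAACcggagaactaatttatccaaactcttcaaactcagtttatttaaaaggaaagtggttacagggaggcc
C4bp: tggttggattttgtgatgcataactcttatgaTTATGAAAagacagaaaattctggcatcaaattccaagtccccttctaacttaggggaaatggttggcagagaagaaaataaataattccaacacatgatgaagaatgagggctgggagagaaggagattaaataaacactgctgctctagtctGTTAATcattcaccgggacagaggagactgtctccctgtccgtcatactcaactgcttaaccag

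Each of the 4 windows held GTTAAT, with its first base 107 bases before the start in C8a, 206 in C8b, 74 in Hc and 64 in C4bp. Among 25 members with an entry, these letters were found in 5 of the 11 called lower in aged females on Low Isoleucine (Vtn was the other one) and in 1 of the 13 tested and not called; Klkb1, which had no counts, made up the 25 and held only TTNNGNAA. Across the 32851 promoter windows of the RefSeq table, 6.43% held them. The C/EBP letters TTNNGNAA were in 5 of the 11 and 5 of the 13, beside 36.8% of all windows. STAT letters TTCNNNGAA were in 2 of the 11 and 2 of the 13, beside 7.02% of all windows. No member window held CAAAGTCC, which 1.2% of all windows held. These matches describe letters in a window and not bound sites, and the motifs do not overlap one another in the 4 windows shown.

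Levels of the members spanned more than 2 orders of magnitude. Per kilobase of exon, C3, the central component of complement, was highest at a mean of 3690 CPM per kb over the 46 libraries. It was followed by Vtn (vitronectin, which binds the terminal complex and clotting inhibitors) at 1280, Kng1 (kininogen) at 922, Plg (plasminogen) at 783 and F2 (prothrombin) at 463 CPM per kb. C6, a terminal component, was lowest at 7.92 CPM per kb, next to Pros1 (protein S) at 17.5 and Masp1 at 19.1. The 30 genes together made up a median of 3.9% of all counts in a library (3.31% to 6.14%), and C3 alone 1.73%.

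**Figure D1:**
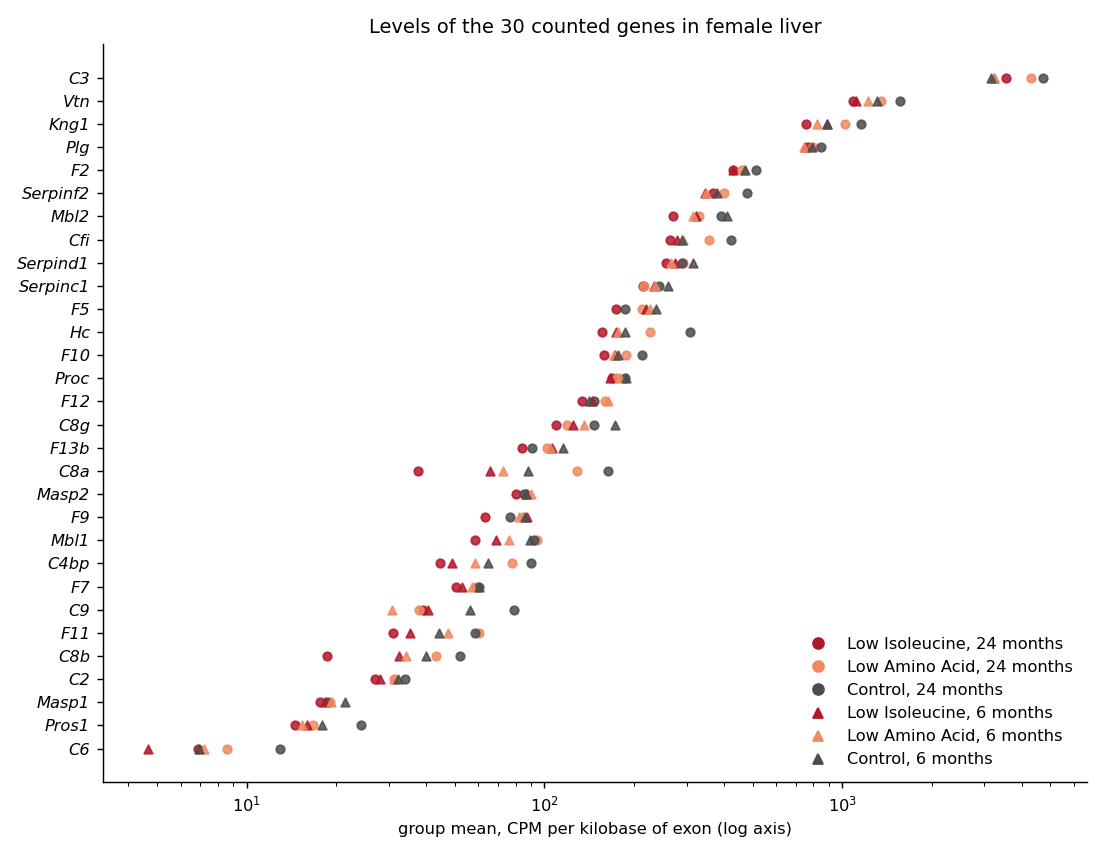
Group means of the 30 counted genes in female liver, in CPM per kilobase of exon on a log axis, ordered by the mean over 46 libraries; circles are 24-month and triangles 6-month groups, coloured by diet. C3 leads at 3690 and C6 is last at 7.92 CPM per kb, and the widest gaps between groups are at C8a and C8b.

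Animals of one group differed more for some members than for others. The median within-group SD of log2 CPM was largest for the terminal components C6 (0.695), C9 (0.666), C8a (0.588) and C8b (0.558). It was smallest for C3 (0.153) and Cfi (0.174). Over the 30 members the median was 0.232, beside 0.272 over all 12617 genes tested and 0.202 over the 4640 genes at least as abundant as the lowest member.

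In aged females, the terminal complement genes and complement regulators were the roles in which Low Isoleucine livers lay farthest below Control livers. At 24 months, 13 of the 30 members were lower on Low Isoleucine than on Control and 0 were higher (edgeR quasi-likelihood test, Benjamini-Hochberg adjusted p under 0.05). By the same rule 6.48% of all 12617 genes were called in either direction and 3.78% lower. Every one of the 8 Low Isoleucine libraries stood below the Control median for each of the 13. The 13 were picked on these same libraries, so this follows in part from the choice, and its share over all genes was not counted. It also held for F2, C3 and Serpinf2, which were not called. The fold changes of the 30 members were all negative, 21 with an unadjusted p under 0.05 (22.3% of all genes), with a median log2 fold change of -0.42, beside -0.02 for all genes. The calls took in 4 of 6 terminal complement genes (median log2 fold change -1.0), 2 of 2 complement regulators (-0.85), 2 of 6 activation genes (-0.38), 3 of 9 coagulation proteases and cofactors (-0.27) and 2 of 7 genes of fibrinolysis and inhibition (-0.18).

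**Figure D2:**
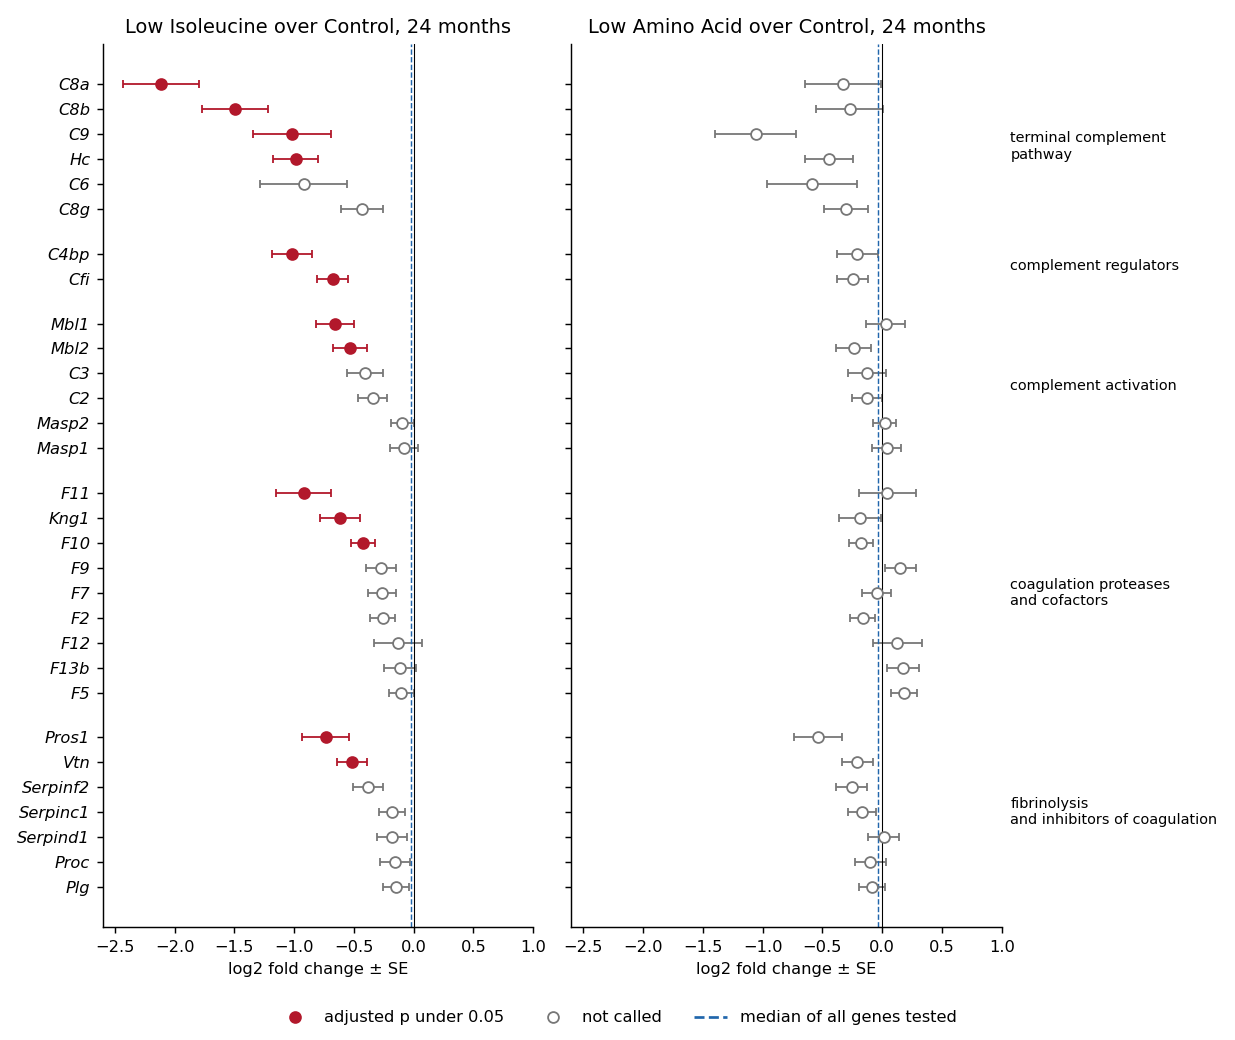
Fitted log2 fold changes ± SE of the 30 counted genes in 24-month females, Low Isoleucine over Control on the left and Low Amino Acid over Control on the right, grouped by role; filled points have an edgeR adjusted p under 0.05 and the dashed line is the median of all genes tested. All 13 filled points stand on the left, led by C8a at -2.11 and C8b at -1.49.

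The terminal components C8a, C8b, Hc and C9 were lower on Low Isoleucine. C8a, the alpha chain of C8, had 92.3 CPM in the lowest, 148 in the median and 171 in the highest Low Isoleucine library, against 102, 548 and 1170 CPM in Control. Of the 8 Control libraries, 7 stood above every Low Isoleucine library, and 1 Control library lay within their range. The log2 fold change was -2.11 (SE 0.319, edgeR adjusted p = 0.000241). C8b, the beta chain, ran over 32.2, 47.7 and 66.5 CPM (lowest, median, highest) on Low Isoleucine, against 40.5, 118 and 257 CPM on Control. Again 7 of 8 Control libraries were above all Low Isoleucine ones, with a log2 fold change of -1.49 (SE 0.276, edgeR adjusted p = 0.00106).

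Hc, which encodes C5, stood at 845, 941 and 1160 CPM on Low Isoleucine (lowest, median, highest) against 768, 1910 and 3440 CPM on Control. The lowest library of the pair of groups was a Control, and the other 7 Controls lay above every Low Isoleucine library. The log2 fold change was -0.99 (SE 0.192, edgeR adjusted p = 0.00138). C9, which polymerises to form the pore, had 62.0, 107 and 159 CPM on Low Isoleucine and 95.3, 192 and 376 CPM on Control, with 4 Controls above all Low Isoleucine libraries. Its log2 fold change of -1.02 had an edgeR adjusted p = 0.0481, close to the threshold, and the call was lost in 26 of 46 fits that left out a single library (adjusted p 0.0278 to 0.126). C6 (log2 fold change -0.92, edgeR adjusted p = 0.12) and C8g, the gamma chain (-0.43, 0.128), were not called.

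**Figure D3:**
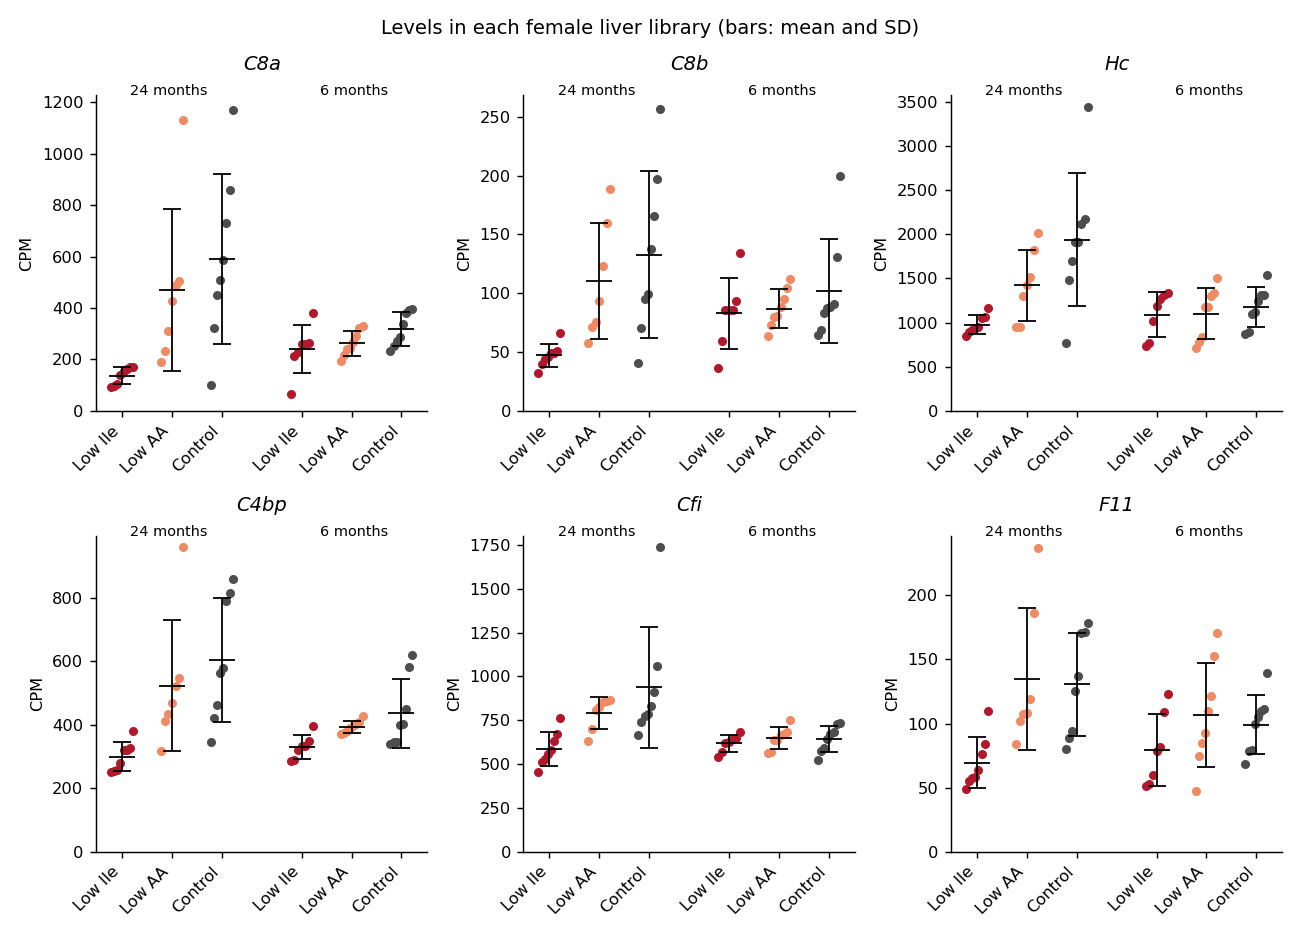
CPM of C8a, C8b, Hc, C4bp, Cfi and F11 in each female library by age and diet; points are libraries and bars are the group mean and SD. In 24-month livers C8a ran over 92.3 to 171 CPM on Low Isoleucine and 102 to 1170 CPM on Control, and F11 over 48.8 to 109 CPM on Low Isoleucine and 80.0 to 179 CPM on Control.

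Both regulators were lower in aged livers on Low Isoleucine. C4bp, which holds factor I on C4b, had 252, 300 and 381 CPM on Low Isoleucine (lowest, median, highest), against 346, 570 and 858 CPM on Control. All but 1 library of each group lay outside the other group's range, and the log2 fold change was -1.01 (SE 0.167, edgeR adjusted p = 0.000397). Cfi, the protease that inactivates C3b and C4b, ran over 454, 566 and 760 CPM on Low Isoleucine and 668, 808 and 1740 CPM on Control. In either group 6 of the 8 libraries lay outside the other's range, with a log2 fold change of -0.68 (SE 0.127, edgeR adjusted p = 0.00115).

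Of the activation genes, the mannose-binding lectins were lower and their proteases Masp1 and Masp2 were not called (log2 fold changes of -0.08 and -0.09). Mbl1 had 72.0, 87.0 and 119 CPM on Low Isoleucine and 74.0, 149 and 202 CPM on Control. Of the Controls 1 library was within the Low Isoleucine range, and the log2 fold change was -0.66 (SE 0.159, edgeR adjusted p = 0.00917). For Mbl2 the values were 202, 316 and 368 CPM on Low Isoleucine and 232, 428 and 582 CPM on Control. Of the Controls, 6 were above all Low Isoleucine libraries, and the log2 fold change was -0.53 (SE 0.142, edgeR adjusted p = 0.0179). C3 itself had 14700, 18400 and 21500 CPM on Low Isoleucine, against 14500, 24900 and 36400 CPM on Control. Of the 8 Controls, 5 were above every Low Isoleucine library, but with a log2 fold change of -0.41 (SE 0.151) C3 was not called by edgeR (adjusted p = 0.0912); DESeq2 gave an adjusted p of 0.0478. C2, the protease of the classical and lectin convertase, had a log2 fold change of -0.34 and an edgeR adjusted p = 0.0758.

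Among coagulation genes, F10, F11 and Kng1 were lower. F10, the protease that makes thrombin from prothrombin, had 362, 441 and 509 CPM on Low Isoleucine and 426, 570 and 704 CPM on Control. There were 6 Controls above every Low Isoleucine library, with a log2 fold change of -0.42 (SE 0.0984, edgeR adjusted p = 0.00714). F11, of the intrinsic arm, stood at 48.8, 61.1 and 109 CPM on Low Isoleucine and 80.0, 131 and 179 CPM on Control. Of the Low Isoleucine libraries, 6 lay below every Control, with a log2 fold change of -0.92 (SE 0.231, edgeR adjusted p = 0.012). Kng1, the precursor of bradykinin, had 1650, 2670 and 3000 CPM on Low Isoleucine against 2410, 3050 and 8020 CPM on Control. Its log2 fold change was -0.61 (SE 0.169, edgeR adjusted p = 0.0212). Control replicate 3 held the 8020 CPM value, and without it the Kng1 fold change was -0.36 and the edgeR adjusted p 0.0995.

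F2, prothrombin, had 1510, 2030 and 2340 CPM on Low Isoleucine and 1830, 2380 and 3210 CPM on Control. Of the Controls, 5 stood above all Low Isoleucine libraries, yet F2 was not called (log2 fold change -0.26, SE 0.104, edgeR adjusted p = 0.123). The other uncalled coagulation genes, F5, F7, F9, F12 and F13b, had log2 fold changes between -0.28 and -0.10.

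In the group of fibrinolysis and inhibitors, Vtn and Pros1 were lower. Vtn had 1710, 2200 and 2670 CPM on Low Isoleucine against 2030, 2860 and 4710 CPM on Control, with 4 Controls above every Low Isoleucine library. The log2 fold change was -0.52 (SE 0.127, edgeR adjusted p = 0.0103). Pros1, the cofactor of activated protein C, had 49.1, 53.1 and 81.1 CPM on Low Isoleucine and 47.6, 93.0 and 165 CPM on Control. The lowest library was a Control while 6 Controls lay above every Low Isoleucine library, and the log2 fold change was -0.74 (SE 0.193, edgeR adjusted p = 0.0158). Serpinf2, alpha-2-antiplasmin, just missed the threshold (log2 fold change -0.38, edgeR adjusted p = 0.0557). Serpinc1, Serpind1, Plg and Proc lay between -0.18 and -0.15 and were not called.

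No member separated the aged Low Isoleucine and Control libraries completely, where 0.254% of all genes did. The count of 13 differed between fits. With the 2 groups fitted alone it was 3 (C8a, C8b and C4bp), where calls over all genes were 40 in place of 817, and with limma voom and sample quality weights it was 7, of 565 over all genes. Without the aged Controls highest in acute phase genes (replicates 1 and 5) it was 12, with Pros1 and Kng1 lost and C8g gained.

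Acute phase genes and neutrophil markers were also lower in these livers. Of 21 other acute phase genes, 11 were called lower in aged females on Low Isoleucine and 0 higher, with a median log2 fold change of -1.47. Their summed level ran over 16800 to 32900 CPM on Low Isoleucine and 15400 to 105000 CPM on Control, and none was at 0 in any library. Of 9 neutrophil markers, 3 were called lower, and their summed level was 3.47 to 154 CPM on Low Isoleucine against 9.13 to 712 CPM on Control. Ngp and Camp were at 0 in some Low Isoleucine libraries and Camp in some Controls. All 10 Kupffer cell and macrophage markers had negative fold changes and 0 were called by edgeR (157 to 1600 CPM summed on Low Isoleucine, 333 to 2930 on Control). Their median log2 fold change was -0.77, and 5 had an unadjusted p under 0.05 (22.3% of all genes). In the authors' deposited table C1qa (-1.205, adjusted p = 0.0138), C1qb (-1.38, 0.00734) and C1qc (-1.28, 0.0251) were lower, where 5.21% of its genes pass as lower. The other macrophage markers were not looked up there. Hepatocyte markers gave 0 calls of 6, with a median log2 fold change of 0.11. Of the platelet markers 1 of 4 was called lower, and markers of endothelium (6 tested), stellate cells (6), lymphocytes (6) and bile duct cells (4) gave 0 calls by edgeR. The part of inflammatory genes in the members' difference was not tested. Without the aged libraries highest in neutrophil genes, 12 members were called, with C9 and Mbl2 lost and C2 gained.

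**Figure D4:**
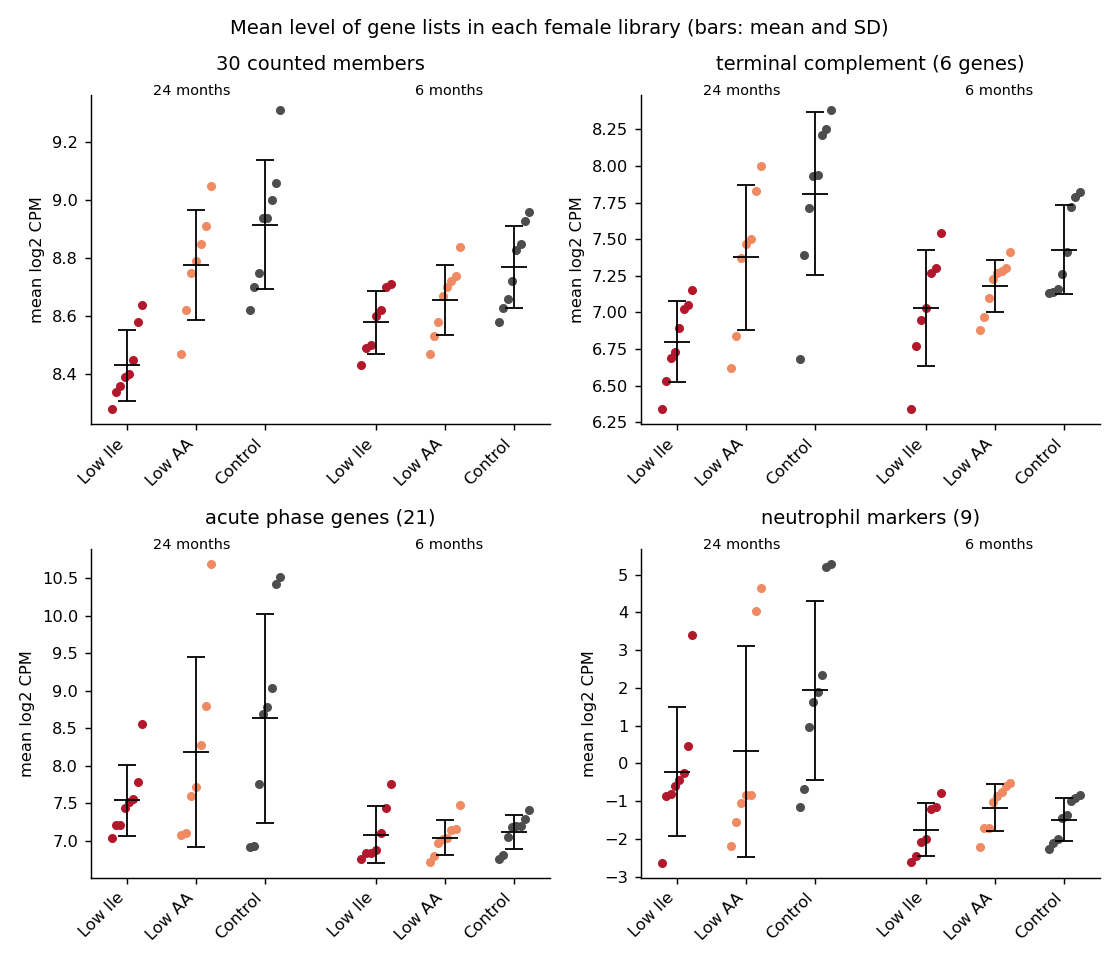
Mean log2 CPM in each female library of the 30 counted members, the 6 terminal complement genes, 21 acute phase genes that are no members and 9 neutrophil markers; points are libraries and bars are the group mean and SD. Aged Control and Low Amino Acid libraries ranged more widely than 6-month libraries of the same diet in every panel. Aged Low Isoleucine libraries did so except for terminal complement genes (6.34 to 7.15, against 6.34 to 7.54 at 6 months). They ran over -2.63 to 3.41 for neutrophil markers and 7.03 to 8.56 for acute phase genes. Acute phase means at 24 months reached 10.52 in Control and 10.69 on Low Amino Acid, against 8.56 on Low Isoleucine.

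Low Amino Acid livers of the same age were compared with the same Controls. No member was called at 24 months by edgeR, where 0.753% of all genes were, and 3 had an unadjusted p under 0.05 (16.9% of all genes); DESeq2 called 1. The median log2 fold change of the 30 members was -0.17, beside -0.03 for all genes, and 21 were negative. C9 had 26.5, 87.0 and 208 CPM on Low Amino Acid against 95.3, 192 and 376 CPM on Control, a log2 fold change of -1.06 (SE 0.338, edgeR adjusted p = 0.11). Pros1 had 50.0, 58.9 and 120 CPM on Low Amino Acid against 47.6, 93.0 and 165 CPM on Control (log2 fold change -0.53, edgeR adjusted p = 0.171). For C8a the Low Amino Acid libraries ran over 189, 428 and 1130 CPM, all within the Control range of 102 to 1170 CPM. C9 passed the threshold with DESeq2 (adjusted p = 0.0472) and with voom weights (0.0462). C9 and Pros1 both passed without the aged libraries high in neutrophil genes (edgeR adjusted p of 0.0269 for C9 and 0.0326 for Pros1), and 2 members passed without Low Amino Acid replicate 2. Of the 21 acute phase genes and 9 neutrophil markers, 0 were called in this comparison by edgeR, with an unadjusted p under 0.05 for 2 and 0 of them. Acute phase genes were negative for 16 and positive for 5. All 9 neutrophil (median log2 fold change -0.88), 10 macrophage (-0.64) and 6 lymphocyte markers (-1.34, 4 with an unadjusted p under 0.05) were negative, with 0 called. Hepatocyte markers were negative for 3 and positive for 3. The part of these lists was not tested.

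The 2 restricted diets were also set against each other. In aged females Low Isoleucine had 5 members lower and 0 higher than Low Amino Acid, where 1.19% of all genes were called in either direction and 0.943% lower. They were C8a (log2 fold change -1.78, SE 0.322, edgeR adjusted p = 0.00198), C4bp (-0.81, SE 0.171, 0.0108), C8b (-1.22, SE 0.281, 0.0199), Mbl1 (-0.69, SE 0.164, 0.0242) and F11 (-0.96, SE 0.238, 0.0319). C8a was the only member whose libraries did not overlap, at 92.3 to 171 CPM on Low Isoleucine and 189 to 1130 CPM on Low Amino Acid; 0.515% of all genes did not overlap, and 0.309% did so with Low Isoleucine lower. Of the 30 fold changes 29 were negative, with a median of -0.27, and 13 had an unadjusted p under 0.05 (15.8% of all genes). Without Low Amino Acid replicate 4, which also had the highest acute phase mean at 10.69, 1 member was called (C8a), and calls over all genes were 79 in place of 150. Without Low Isoleucine replicate 1 or replicate 8, 3 members were called, with 65 and 66 calls over all genes. Acute phase genes gave 1 call of 21, lower on Low Isoleucine, with sums of 16800 to 32900 CPM on Low Isoleucine and 18100 to 89700 CPM on Low Amino Acid. All 9 neutrophil markers were negative (median log2 fold change -2.36, 4 with an unadjusted p under 0.05) and all 6 lymphocyte markers positive (median 1.15, 4 unadjusted), with 0 called by edgeR in either list. The part of these lists in the members' difference was not tested.

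At 6 months no member was called by edgeR or by DESeq2 in any diet comparison. For Low Isoleucine over Control 26 of 30 fold changes were negative, with a median of -0.17 beside -0.01 for all genes, of which 0.0238% were called. The 4 with an unadjusted p under 0.05 (10.1% of all genes) were C8g, C4bp, Mbl2 and Mbl1, at log2 fold changes of -0.46, -0.40, -0.34 and -0.38 and edgeR adjusted p of 0.355 to 0.418. Low Amino Acid over Control gave a median of -0.09, with C9 (-0.87) and Mbl2 (-0.37) under an unadjusted 0.05 (8.06% of all genes) and 0% of all genes called. Low Isoleucine over Low Amino Acid had none under an unadjusted 0.05 (9.95% of all genes), and 0.0159% of all genes called; with these groups fitted alone 1 member was called. C8a in younger livers had 66.2, 259 and 381 CPM on Low Isoleucine, 194, 257 and 329 CPM on Low Amino Acid and 234, 313 and 396 CPM on Control.

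Whether the Low Isoleucine difference changed with age was tested as an interaction. No member passed, and 0% of all genes did; 9 members had an unadjusted p under 0.05 (8.49% of all genes) and DESeq2 called 1. C8a had the lowest p, with a log2 difference between 24 and 6 months of -1.70 (SE 0.443, edgeR adjusted p = 0.194, DESeq2 0.0492). Cfi (-0.62), Hc (-0.88) and C8b (-1.20) followed, at edgeR adjusted p of 0.286, 0.315 and 0.322. For Low Amino Acid no member had an unadjusted p under 0.05 by edgeR (10.2% of all genes did), 0% of all genes were called, and DESeq2 called 0 members. The calls at 24 months and their absence at 6 months are therefore not shown to differ.

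Control livers differed with age in both directions. At 24 months, 7 members were higher and 2 lower than at 6 months, where 28% of all genes were called (16.6% higher and 11.4% lower), so that the members' share of 30% lay near that of all genes. Cfi had 668, 808 and 1740 CPM at 24 months against 525, 657 and 734 CPM at 6 months, and 7 of the 8 aged libraries lay above every younger one (log2 fold change 0.54, SE 0.127, edgeR adjusted p = 0.00166). C3 had 14500, 24900 and 36400 CPM at 24 months and 14200, 15900 and 18100 CPM at 6 months (0.57, SE 0.151, edgeR adjusted p = 0.00453). Hc had 768, 1910 and 3440 CPM at 24 months and 871, 1180 and 1540 CPM at 6 months (0.72, SE 0.191, edgeR adjusted p = 0.00453). F5, the cofactor of F10, was lower, with 1170, 1280 and 2160 CPM at 24 months against 1320, 1830 and 2120 CPM at 6 months (-0.35, SE 0.107, edgeR adjusted p = 0.0138). Of the aged F5 values 5 lay below every younger one and 1 above them all. C8a, C4bp, F10 and Serpinf2 were the other members called higher, and F13b the other called lower.

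Aged Control livers also had 17 of 21 acute phase genes, 9 of 9 neutrophil, 8 of 10 macrophage and 6 of 6 lymphocyte markers called higher. All 6 hepatocyte markers were negative there (median log2 fold change -0.42), 3 with an unadjusted p under 0.05 and 1 called lower. The part of these in the members' difference was not tested. Summed neutrophil markers stood at 9.13 to 712 CPM at 24 months and 3.66 to 9.48 CPM at 6 months. Without aged Control replicates 1 and 5, 3 members were called in place of 9, with 2374 calls over all genes in place of 3536. Without replicate 1 alone 5 members were called, of 2707 over all genes. With the 2 groups fitted alone 2 members were called (2126 over all genes), and with voom weights 5 (2555). On Low Amino Acid no member differed by age by edgeR or DESeq2 (1.56% of all genes called), and 4 had an unadjusted p under 0.05 (13.8% of all genes). On that diet 10 of 21 acute phase genes and 5 of 9 neutrophil markers were called higher at 24 months by edgeR. Macrophage, lymphocyte and hepatocyte markers gave 0 calls there.

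On Low Isoleucine 1 member was lower at 24 months, where 7.21% of all genes were called and 2.39% were lower. This was F9, the factor lacking in haemophilia B, with 135, 178 and 210 CPM at 24 months against 203, 243 and 273 CPM at 6 months (log2 fold change -0.46, SE 0.128, edgeR adjusted p = 0.0223). Of the 8 aged libraries, 7 lay below every younger one. In the same comparison 6 of 6 lymphocyte, 2 of 10 macrophage and 1 of 9 neutrophil markers were called higher and 1 of 6 hepatocyte markers lower; their part in the F9 value was not tested. The call was lost without 6-month replicate 8 (edgeR adjusted p = 0.0512) or 24-month replicate 5 (0.0636), and DESeq2 called 3 members. C3 on Low Isoleucine had 14700 to 21500 CPM at 24 months and 15900 to 18300 CPM at 6 months.

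Of 73 other genes of both pathways, 58 were tested. In aged females on Low Isoleucine, 16 were lower than on Control and 1 was higher, beside 3.78% and 2.69% of all genes, with a median log2 fold change of -0.34. Among those lower was Cpb2, the fibrinolysis inhibitor TAFI (log2 fold change -0.98, SE 0.196, edgeR adjusted p = 0.00206). The 3 fibrinogen chains Fga (log2 fold change -1.39, edgeR adjusted p = 0.00411), Fgg (-1.34, 0.00416) and Fgb (-1.25, 0.00569) were lower as well. Cd46, a membrane cofactor of factor I, was the 1 gene higher (0.59, SE 0.135, edgeR adjusted p = 0.00659). None of the 58 was called for Low Amino Acid over Control by edgeR, where 9 had an unadjusted p under 0.05 (16.9% of all genes did). For that comparison the authors' deposited table has 7 of 70 of these genes lower and 0 higher, where 2.66% of its genes pass as lower. For Low Isoleucine over Control at 24 months it has 21 lower and 2 higher, where 5.21% pass as lower. C1s1, a protease of the classical pathway, was lower on Low Isoleucine than on the Low Amino Acid diet (log2 fold change -0.38, edgeR adjusted p = 0.0307). In aged against younger Control livers 23 were higher and 3 lower, beside 16.6% and 11.4% of all genes, with Fga at a log2 fold change of 1.85 (edgeR adjusted p = 8.7e-05).

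Of 20 transcription factors and cytokine signalling genes of liver, 5 were lower in aged females on Low Isoleucine than on Control and 0 higher, beside 3.78% and 2.69% of all genes. They were Esr1, the oestrogen receptor (log2 fold change -0.77, edgeR adjusted p = 0.00151), Stat3, which carries the interleukin 6 signal (-0.76, 0.0069), its receptor chain Il6st (-0.46, 0.0149), the interleukin 1 receptor Il1r1 (-2.04, 0.0154) and Socs3, a feedback inhibitor of that signalling (-1.89, 0.0191). On Low Amino Acid 0 of the 20 were called by edgeR and 6 had an unadjusted p under 0.05 (16.9% of all genes). At 6 months 1 of the 20, Esr1, was called lower on Low Isoleucine (log2 fold change -0.80, edgeR adjusted p = 0.0379), where 0.0238% of all genes were called.

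The authors' deposited table of females adds the 3 genes without counts. For Low Isoleucine over Control at 24 months, the authors' deposited table has 14 of the 33 members lower and 0 higher at an adjusted p under 0.05, where 9.24% of its genes pass in either direction and 5.21% pass as lower. In the authors' deposited table Cfb, factor B of the alternative pathway, had a log2 fold change of -0.54 (adjusted p = 0.00155). C6 (-1.14, adjusted p = 0.0379) and C2 (-0.42, 0.0332), which the counts did not call, passed in the authors' deposited table. With Cfb, C6 and C2 among its 14, not all of the 13 members called from the counts passed there. C4b and Klkb1 did not pass there. C4b is near-identical in sequence to C4a, and whether reads were split between them was not tested. For Low Amino Acid over Control at 24 months the authors' deposited table has 2 lower, C9 (-1.63, adjusted p = 0.00714) and Pros1 (-0.73, 0.0307), where 5.53% of genes pass, 2.66% as lower. At 6 months 0 members pass in the authors' deposited table for Low Isoleucine (0.0931% of genes) or Low Amino Acid (0.0116%). Between 24 and 6 months on Control, the authors' deposited table has 7 higher and 3 lower where 23.5% of genes pass (12.4% higher, 11.1% lower), among them C4b (0.79, adjusted p = 0.0249), Cfb (0.33, 0.0102) and Klkb1 (-0.50, 0.029). Between the ages on Low Isoleucine 0 pass in the authors' deposited table (0.739% of genes).

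**Figure D5:**
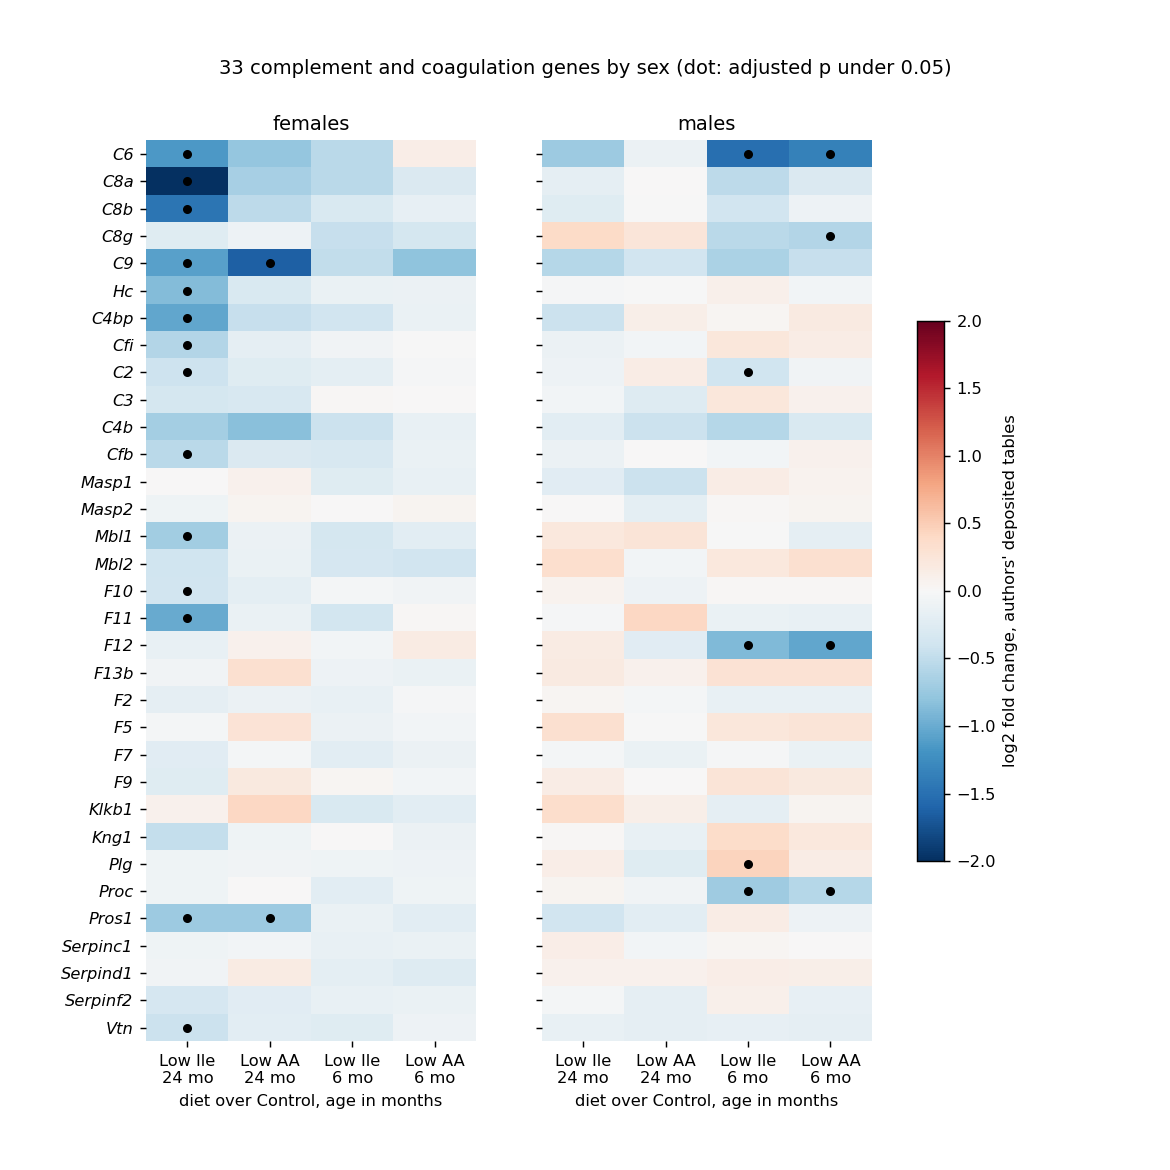
Log2 fold changes of the 33 genes in the authors' deposited tables, females on the left and males on the right, for each diet over Control at each age; a dot marks an adjusted p under 0.05 in that table. Dots of females fall in the 24-month columns (14 for Low Isoleucine), and those of males in the 6-month columns (5 for Low Isoleucine, 4 for Low Amino Acid). Of all genes, 9.24% pass in females on Low Isoleucine at 24 months. In males at 6 months 21.1% pass on Low Isoleucine and 16.3% on Low Amino Acid.

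In males the members called by diet were those at 6 months, per the authors' deposited table. With both directions counted together, their share was below that of all genes on either diet. The share called lower lay near that of all genes. For Low Isoleucine over Control at 6 months, the authors' deposited table has 4 members lower and 1 higher, where 21.1% of its genes pass (11.7% lower, 9.35% higher). In the authors' deposited table the lower ones were Proc, protein C (log2 fold change -0.72, adjusted p = 2e-04), C6 (-1.50, 0.00081), F12 (-0.89, 0.00192) and C2 (-0.40, 0.0165), and Plg was higher (0.45, 0.00567). For Low Amino Acid over Control at 6 months, the authors' deposited table has F12 (-1.04, adjusted p = 9.12e-05), Proc (-0.58, 0.00072), C6 (-1.36, 0.000797) and C8g (-0.58, 0.0361) lower, where 16.3% pass and 11% pass as lower. At 24 months 0 members pass in the authors' deposited table for Low Isoleucine (0.0676% of genes) or Low Amino Acid (0.0563%). C8a, at -2.02 in aged females on Low Isoleucine, stood at -0.19 (adjusted p = 0.757) in aged males in the authors' deposited table. Hc stood at -0.87 in aged females and -0.025 in aged males in the authors' deposited tables. With age on Control, the authors' deposited table of males has 6 members higher and 1 lower (20% of genes pass, 8.33% higher and 11.7% lower), led by Cfi (0.53, adjusted p = 0.00178), C4bp (0.65, 0.00218), Kng1 (0.48, 0.0165) and Proc (-0.39, 0.018). On Low Isoleucine 0 members pass between the ages in males in the authors' deposited table (7.08% of genes). The difference between the sexes was not tested, and the sources do not say which libraries entered these tables.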

How the data were processed

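The authors sequenced liver RNA from 92 mice, 47 female and 45 male. Libraries were stranded and polyA selected, from snap-frozen tissue, and reads of both lanes were combined, per the labels' protocols. Named in the submitters' processing notes are GRCm38.p5, R 3.4.3, edgeR and limma; for the aligner and annotation, nothing is stated in them. The authors deposited estimated counts per gene, and tables with a log2 fold change, a p-value and further statistics (a score per gene) for each comparison.

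Male columns of the deposited count table were not used: fold changes from them correlated at -0.009 to 0.014 with the authors' deposited table across 12145 genes, against 0.907 to 0.95 for females across 11952. Of 51912 lines, 17275 were filled for every female column. Symbols were matched to gene IDs through the deposited comparison tables; exon lengths came from GENCODE M21 (GRCm38), in which 17250 IDs matched.

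Estimated counts were rounded, filtered with filterByExpr (12617 genes left) and scaled by TMM, and 46 female libraries in 6 groups were fitted in 1 edgeR 4.0.16 quasi-likelihood model (R 4.3.3), with Benjamini-Hochberg adjustment over all genes and calls at 0.05. CPM used TMM library sizes, and the log2 CPM scale a prior count of 0.5. Libraries are separate animals, and p-values rest on the spread between animals within groups, taken over all 6 groups together. That spread was not equal between groups. Terminal complement means ran over 6.68 to 8.38 log2 CPM in aged Controls and 7.13 to 7.82 in 6-month Controls. Some animal IDs share a number within a group. The labels do not say what it stands for, and it was not modelled. Library totals ran over 7.82 to 27.56 M counts (M, 1000000). No pair of libraries had identical counts. Alternatives were DESeq2 1.42.0, RLE size factors, no filter, the compared groups alone, limma 3.58.1 voom with quality weights, 47 libraries, and the omission of aged libraries high in acute phase or neutrophil genes and of each library in turn.

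Members and lists were chosen with earlier results of these data known. All members are counted; those given in full are the 12 with the lowest adjusted p in a diet comparison of females, with C3, F2 and, near the threshold, C9, which was added after its values were seen. For age, the 4 with the lowest adjusted p were named. Of the other genes of both pathways, up to 6 were named by adjusted p, and 1 result is not reported here. A library labelled female with a high Kdm5d level was left out.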

Additional observations from a re-analysis of the deposited data

Results flagged for a closer look

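In 14 of 180 pairs of a member and a female group, 1 library stood apart by Dixon's ratio, the gap to its nearest neighbour over the group's range (95% level). Chance gives about 1 in 20 such pairs, or 9. No explanation was tested.

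In 24-month Low Isoleucine livers, C8g was lowest in replicate 5 (97.4 CPM, next 156; ratio 0.596), the shallowest library, and Proc in replicate 2 (310, next 391; 0.527). In 24-month Low Amino Acid livers Masp2 was highest in replicate 6 (377, next 286; 0.651).

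In 24-month Control livers F5 (2160, next 1380; 0.739) and F9 (325, next 226; 0.592) were highest in replicate 3, which also held the highest Kng1 value. Serpind1 was lowest in replicate 5 (308, next 533; 0.538), one of the 2 aged Controls with the highest acute phase means.

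In 6-month Low Isoleucine livers F12 (112, next 233; 0.585) and Proc (229, next 393; 0.686) were lowest in replicate 8, Masp1 in replicate 4 (119, next 179; 0.768) and C8a in replicate 5 (66.2, next 212; 0.665). In 6-month Low Amino Acid livers Proc was lowest in replicate 1 (339, next 421; 0.597). In 6-month Control livers replicate 5 was highest for C8g (394, next 286; 0.531), Mbl1 (240, next 148; 0.586) and Mbl2 (661, next 479; 0.527).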

How the results depend on the processing

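No paired analysis was possible because the labels give animal IDs, not replicate numbers shared between groups. Of the 74 member fold changes recomputed (those with an unadjusted p under 0.05 in a comparison, and C3, F2 and Hc), 0 reversed under these alternatives. A reversal was unlikely for fold changes chosen by a low p, so this says little. Only fold changes called in the main fit could lose a call, and most of the 74 were not called. At 24 months the calls were 13 for Low Isoleucine over Control and 5 for Low Isoleucine over Low Amino Acid. Between ages they were 9 on Control and 1 on Low Isoleucine. With the compared groups alone 20 of these calls were lost and 1 was gained, and with voom weights 10 were lost and 6 gained. Fold changes of other genes and of other members were not recomputed. At 24 months, the members called for Low Isoleucine over Control were 13, and became 3 in a fit of those groups by themselves and 7 with voom weights. For Low Amino Acid over Control, 0 became 1 with DESeq2, 1 with voom weights and 2 without the libraries high in neutrophil genes. For Low Isoleucine over Low Amino Acid, 5 became 2 with the compared groups alone and 3 without the libraries high in neutrophil genes; at 6 months 0 became 1 with the compared groups alone. Between ages on Control, 9 became 2 with the compared groups alone, 5 with voom weights and 3 without the Controls high in acute phase genes. Between ages on Low Isoleucine, 1 became 3 with DESeq2, with 47 libraries and without the Controls high in acute phase genes, 4 with voom weights, and 2 with the compared groups alone and without the libraries high in neutrophil genes. The Low Isoleucine interaction went to 1 with DESeq2. Fitting the compared groups alone uses fewer samples and takes the spread from those groups only, not from all 6. Why the counts differed between fits was not tested.

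With each library left out in turn, the counts ran over 12 to 15 for Low Isoleucine and 0 to 2 for Low Amino Acid over Control at 24 months, 1 to 7 for Low Isoleucine over Low Amino Acid, and 5 to 12 on Control and 0 to 3 on Low Isoleucine between ages. They stayed at 0 in the other comparisons. Depth limits 24-month Low Isoleucine replicate 5 most, at 7.82 M counts.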
